A study of Elaeis guineensis with 18 samples.

Results

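The genes described here were lower in every stressed leaf library of oil palm seedlings than in any unstressed one. They were chosen by their measured values: counts were divided by median-of-ratios size factors (a scaling that puts the median gene of each library on a common level; the result is called a normalised read count below), and a gene was kept when its lowest value over the 3 control libraries was at least 20 and at least 1.5 times its highest value over the 15 stress libraries. This selection retained 223 of the 30606 genes, or 1.14% of the 19640 genes whose control libraries all reached 20, so the limit of 250 genes in the rule was not needed. Because the members were selected on the contrast between stress and control, every value for that contrast is a description, with no test. Every stress was set against the same 3 control libraries. A level raised in these 3 libraries alone would therefore appear as a lower level in every stress. The stresses are thus not separate checks of the lowering, and whether the control libraries stood apart in this way was not tested. The rule did not order the stresses among themselves, and differences between stresses were tested.

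All 18 libraries came from wild-type Deli Dura seedlings, which the study describes as 6 months old and acclimatised for 1 month before the treatments. Each library was made from the third leaf of 3 seedlings taken when the treatments had lasted 2 weeks. The control received 200 mL of water daily at 28 °C. Drought seedlings received 0 mL, salinity seedlings 200 mL of 0.2 M NaCl, and waterlogged seedlings (labelled Flood) stood in water 1 inch above the soil, all at 28 °C. Heat was given at 40 °C and cold at 10 °C, both with 200 mL of water. Each group had 3 libraries of 1 genotype from 1 duration, so a transient change or one limited to another genotype was not measured, and in whole leaves fewer cells of a type and less RNA per cell cannot be told apart.

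Plants that meet drought, salt, cold, heat or a lack of oxygen reset hormone signalling and often slow growth while defence and transport are rearranged. Abscisic acid (ABA) is the main hormone of water deficit: receptors of the PYR/PYL family bind it and then inhibit protein phosphatases 2C, which releases downstream kinases. Receptor-like kinases with leucine-rich repeats (LRR) sit in the cell membrane and sense peptides, hormones or microbial molecules, and mitogen-activated protein kinase cascades carry such signals onward. Heme proteins include many plant oxidoreductases, and glycosyltransferases attach sugars to hormones and other small molecules.

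Library totals ran from 14839345 to 22126971 counts. The summed FPKM of 21 light-harvesting genes, which mark green leaf, was 16189 to 100578 over the 18 libraries. It was lowest under cold (16189 to 20398), highest under waterlogging (73689 to 100578), and in control lower in replicate 1 (26202) than in replicates 2 and 3 (48003 and 51117). The 21 genes come from lists that the study drew from genes changed in these samples. Differences of the sum between groups are therefore no independent check of the tissue. The members accounted for 2.40% to 2.88% of the counts in control and 0.575% to 0.813% in the stress libraries. Without LOC105054906, the member with the most counts, these shares were 1.99% to 2.37% and 0.424% to 0.647%.

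Measured as the log2 ratio of the stress mean to the control mean (1 added to both), the median member stood at -1.70, -1.57, -1.69, -1.71 and -1.96 in drought, salinity, waterlogging, heat and cold, respectively. Over the 20968 genes with a mean of at least 20, the same medians lay between -0.04 and 0.01. The lowest of the 5 stress means was that of cold for 91 genes, heat for 56, waterlogging for 34, drought for 32 and salinity for 10. The cold group thus held the deepest values most often, and salinity the least often. With library totals in place of size factors the medians became -1.98, -1.92, -2.11, -1.87 and -1.70 in the same order of stresses, while the medians of all genes moved to -0.32, -0.36, -0.44, -0.14 and 0.28, so that the order of the stresses depended on the scaling. The sign of the medians is fixed by the selection.

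**Figure D1:**
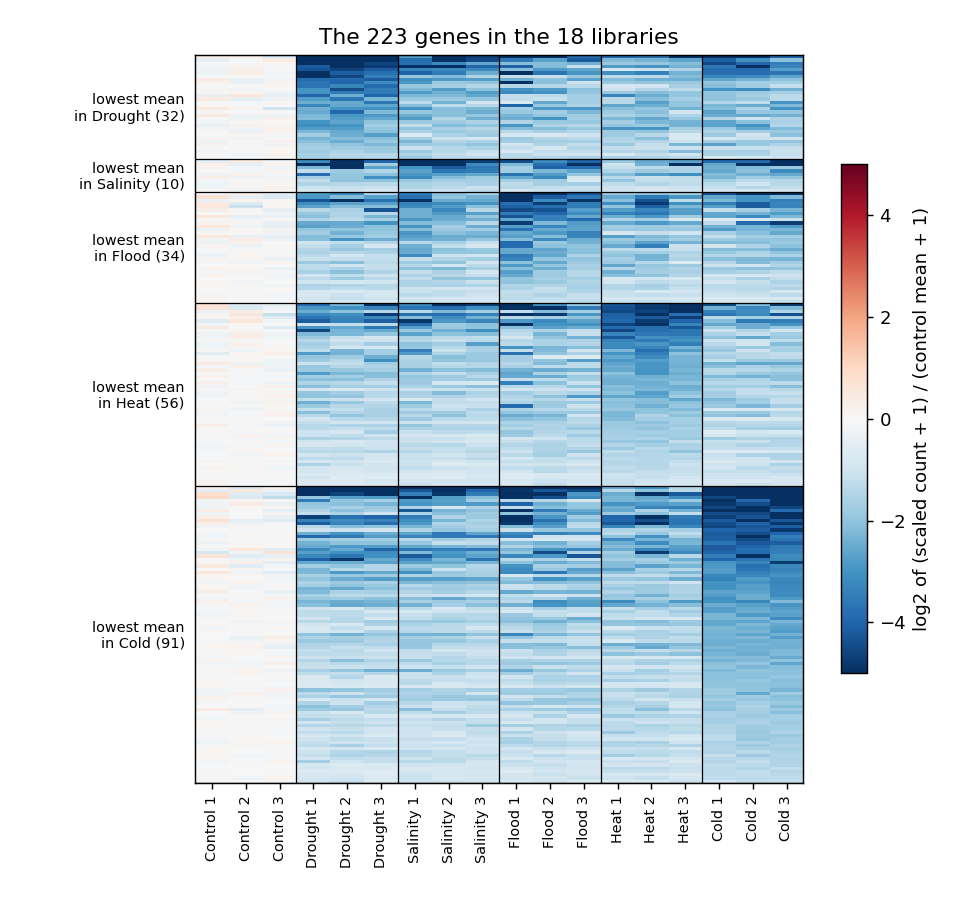
Normalised read counts of the 223 genes in each of the 18 libraries, as the log2 ratio to the control mean of the same gene (1 added to both), with rows grouped by the stress that had the lowest mean. The control columns scatter around 0, with a highest control value up to 4.79 times the lowest of the same gene. The stress columns are below 0 in all rows, which the selection fixed, and the deepest columns are those of cold in the largest group of 91 genes.

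In all 5 stresses, 167 members had a mean at least 2-fold below control, 30 at least 4-fold and 3 at least 8-fold. Under single stresses, at least 4-fold lower means were found for 76 members in drought, 73 in salinity, 83 in waterlogging, 86 in heat and 110 in cold. The 3 members at least 8-fold lower in every stress were LOC105053139, LOC105059044 and LOC105037041, none of which has a function given in the sources used here. LOC105059044 read 1381, 1883 and 556 in control, and its 15 stress libraries lay between 15.3 and 170.4. At the edge of the rule, LOC105039680, LOC105040151 and LOC105053403 passed with ratios of 1.502, and LOC105042137, LOC105042460 and LOC105033925 missed it at ratios of 1.499, 1.498 and 1.497. LOC105045276, LOC105053326 and LOC105039281 had lowest control values of 20.4, 26.7 and 30.1, whereas LOC105055372, LOC105053450 and LOC105058090 met the ratio but not the minimum at 17.6, 15.5 and 15.3.

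**Figure D2:**
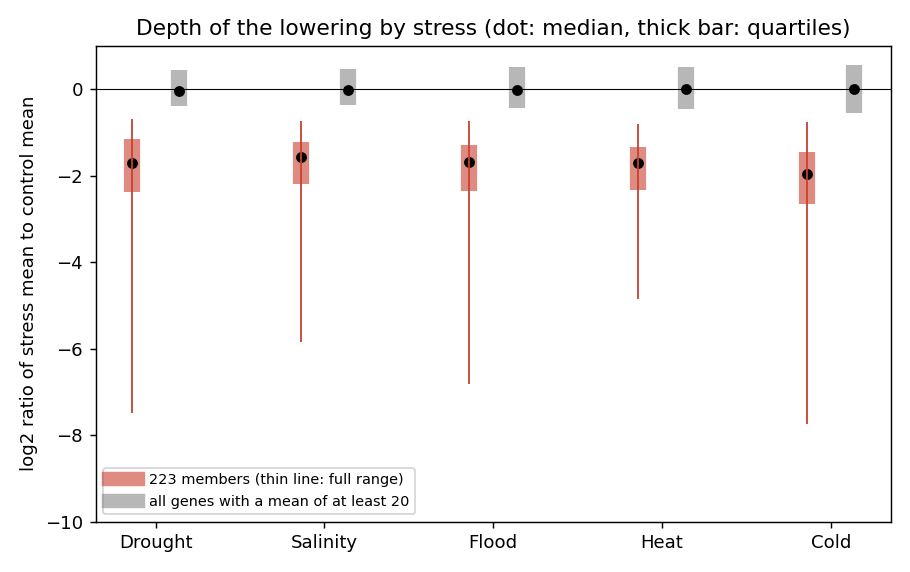
Log2 ratio of the stress mean to the control mean for the 223 members (red) and for all 20968 genes with a mean of at least 20 (grey); dots are medians, thick bars the quartiles and thin red lines the full range of the members. Member medians run from -1.57 under salinity to -1.96 under cold, and the medians of all genes lie near 0.

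Functions were taken from lists in the study, some of which were seen only in part and 1 of which (molecular functions under salinity) could not be read. These give a function for 35 of the 223 members, and the other 188 are named by number only, although a function may exist for them in the full lists. In the NCBI table of oil palm genes, 188 members were matched. Of these 165 are protein coding, 13 long non-coding RNAs (lncRNAs), 7 pseudogenes and 3 other RNAs, and 17 members are gene models that the authors added. Long non-coding RNAs were 6.91% of the matched members and 1.83% of the matched genes among the 19640 that reached 20 in control. Added models were 7.62% of the members and 2.06% of the same 19640 genes. These shares are descriptions and were not tested.

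Of the members with a hormone annotation, the ABA receptor PYL4-like gene LOC105044738 had the widest gap between control and stress and ranked 4 among all members by the ratio of its lowest control to its highest stress value. It read 238, 232 and 269 in control and 1.9, 3.7 and 9.4 under drought. Under salinity it read 17, 25.3 and 39.6, under waterlogging 56.2, 55.2 and 45.5, under heat 67.9, 66.1 and 55.1, and under cold 9.8, 15.3 and 22.4. All 3 drought libraries lay below the other 12 stress libraries, and the heat and waterlogging libraries formed the upper end. Its drought level was below the mean of the other 4 stresses by a log2 difference of -2.80 (SE 0.39, adjusted p = 8.30e-05, edgeR quasi-likelihood test), and its levels under heat (1.79, adjusted p = 4.56e-05) and waterlogging (1.44, adjusted p = 0.0009) were above it.

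Auxin-repressed proteins are encoded by transcripts that decline when auxin is supplied. LOC105053050 read 3357, 2727 and 4120 in control, and LOC105042011 read 2735, 2440 and 2350. Under cold these genes read 674, 740 and 500.1 and 487, 544 and 614. The other 12 stress libraries lay between 870.2 and 1539 for LOC105053050 and between 586 and 998 for LOC105042011, so the cold libraries of the first were below all others and those of the second overlapped with 1 drought library. Cold differed from the other stresses by -0.95 (SE 0.18, adjusted p = 0.000236) for LOC105053050 and by -0.61 (SE 0.13, adjusted p = 0.000707) for LOC105042011 on the log2 scale, both under the 2-fold minimum used for a call.

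LOC105061364, annotated to ethylene-activated signalling, had closely spaced control libraries. They read 13996, 13920 and 13417 (13778 ± 315, SD, n = 3), and its stress means ran from 5465 ± 415 under cold to 8531 ± 313 under drought. Control and stress were separated by a ratio of 1.514 only, which placed it just inside the rule. Its cold level was below (-0.47, SE 0.08, adjusted p = 0.000152) and its drought level above (0.35, SE 0.08, adjusted p = 0.00317) the mean of the other 4 stresses.

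Several members carry kinase annotations, in part because the study has a list for signal transduction. That list of 32 signal transduction genes, which was chosen on these samples and is no independent evidence, holds 11 members, 5 further genes whose means were lower than control in all 5 stresses, 13 with higher means in all 5 and 3 mixed ones. Among its 11 LRR receptor-like kinases 7 were members, 3 had lower means throughout without meeting the rule and 1 was mixed. The 13 genes with higher means included the calmodulin-like proteins, which bind calcium, and 3 of the 4 protein phosphatases 2C, whereas LOC105040470, the probable protein phosphatase 2C 12, was a member.

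LOC105037032 and LOC105036522, both LRR receptor-like kinases, shared a pattern across stresses. LOC105037032 read 103, 120.9 and 104.8 in control, 3.7, 7.1 and 7.9 under heat, and 51.8, 38.9 and 55.0 under cold. LOC105036522 read 548, 650.4 and 332 in control, 29.8, 27.7 and 18.4 under heat, and 202, 161 and 180.9 under cold. For both genes the cold libraries lay above all heat libraries without overlap. Heat was lower than the other 4 stresses by -2.09 (SE 0.41, adjusted p = 0.000784) and -2.05 (SE 0.27, adjusted p = 2.46e-05), respectively, and both genes were also called higher under cold (1.55 and 1.49, adjusted p = 0.0003 and 1.23e-05) and under waterlogging (1.26 each, adjusted p = 0.00734 and 0.00043).

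The other LRR kinases had a range of depths. LOC105060377 read 389, 151 and 173 in control and between 0 and 69.0 under stress, with widely scattered stress libraries, and LOC105047471 read 1142, 958 and 1025 in control and between 295 and 498 under stress. Neither passed the test for any difference among the stresses (adjusted p = 0.471 and 0.619). LOC105046018 was between 1101 and 2264 in control, and LOC105044887 between 491 and 1227, with stress libraries of 162 to 483 and 113 to 318. LOC105042168, named after FLS2, the receptor that senses bacterial flagellin in Arabidopsis, is listed as a pseudogene in the NCBI table. It read 78.2, 78.0 and 79.6 in control and between 10.2 and 40.5 under stress.

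LOC105055153, a mitogen-activated protein kinase kinase kinase 7-like gene that would stand at the start of a kinase cascade, read 1204, 1193 and 1297 in control. It read 492, 496 and 560 under heat, above the other 12 stress libraries, which lay between 199 and 440.1. The heat difference was 0.87 (SE 0.13, adjusted p = 8.18e-05), below the 2-fold minimum. LOC105035966, a member with a protein serine/threonine kinase annotation, read 2447, 2264 and 2526 in control and was least lowered under cold, at 1486, 1302 and 1172 (difference 0.62, SE 0.10, adjusted p = 0.000109).

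Phosphatases remove the phosphate groups that kinases add. LOC105040470 read 1904, 2150 and 2068 in control and between 711 and 1143 under stress, and passed no test among the stresses (adjusted p = 0.432). LOC105039794 and LOC105040151, with phosphatase annotations, had control ranges of 1409 to 1659 and 1274 to 1505 and stress ranges of 595 to 910 and 596 to 848, so that these were members by narrow ratios of 1.547 and 1.502. The zinc finger gene LOC105060971 was abundant, at 14551, 17507 and 14327 in control and 3761, 3733 and 3588 under cold, the lowest group (difference -0.73, SE 0.14, adjusted p = 0.000258). LOC105033906, also a zinc finger gene, and LOC105038793, annotated as a DNA-binding transcription factor, read 178 to 270.1 and 668 to 789 in control and 25.3 to 97.2 and 159 to 411 under stress.

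LOC105054906, annotated to heme binding and cellular oxidant detoxification, was the member with the highest control level per length (2671 ± 309 FPKM, SD, n = 3). It read 87914, 86688 and 73820 in control, 8954, 8847 and 10689 under cold, and between 22398 and 44674 in the other 12 stress libraries. The cold libraries lay below all others, and the mean was 8.72-fold below control under cold and 2.31- to 3.37-fold below it elsewhere. Cold differed from the other stresses by -1.64 (SE 0.15, adjusted p = 2.00e-07). The light-harvesting sum was also lowest under cold, and its part in this difference was not tested.

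Further members with heme annotations differed in the stress in which they were lowest. LOC105044217, with monooxygenase and iron ion binding annotations, read 73.4, 92.6 and 88.3 in control, 0, 4.6 and 1.4 under cold, and 31.9, 31.2 and 45.5 under waterlogging. It was called lower under cold (-3.33, SE 0.58, adjusted p = 0.000147) and higher under waterlogging (1.82, SE 0.39, adjusted p = 0.00284). LOC105054697 read 628, 474 and 296 in control and 30.7, 33.0 and 23.6 under heat, where it was lowest (-1.60, SE 0.30, adjusted p = 0.00058). LOC105052269 held a control level of 3339, 3445 and 3449 and stress levels between 426 and 1504. LOC105058658 read 6.6, 4.9 and 9.4 under drought against 75.1 to 106 in control (-1.72, SE 0.56, adjusted p = 0.0268), a call that was lost without any 1 of the drought libraries (highest adjusted p = 0.108) in a gene that did not pass the test for any difference among the stresses (adjusted p = 0.0998). LOC105037572 was at 34.1 to 54.3 in control and at most 21.4 under stress, with 0 in 8 of its 15 stress libraries.

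The plastid genes described next were lower than control in every stress, least so under heat and most so under cold. LOC105047747, annotated to fatty acid biosynthesis and the plastid, read 257, 556 and 297 in control, 140.4, 92.0 and 144 under heat, and 3.5, 3.1 and 0.7 under cold. All heat libraries lay above the other 12 stress libraries, whose highest value was 22.3. Heat was above the other 4 stresses by 3.98 (SE 0.29, adjusted p = 4.77e-08) and cold below them by -3.06 (SE 0.51, adjusted p = 9.70e-05). LOC105032057, annotated to the chloroplast, read 791, 920.4 and 904 in control, 352, 241 and 366 under heat and 48.3, 38.9 and 55.0 under cold, where heat was above (1.80, SE 0.16, adjusted p = 5.78e-07) and cold below the other stresses (-1.66, SE 0.21, adjusted p = 6.98e-06).

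Among glycosyltransferases, LOC105038182 (2200, 2112 and 1905 in control) and LOC105038191 (1961, 1595 and 1498) are neighbours in the NCBI order of the counted genes. Their stress libraries lay between 197 and 592 and between 258 and 902. The UDP-glycosyltransferase gene LOC105036203 read 233, 289 and 242 in control, 14.1, 56.4 and 112 under waterlogging and at most 48.1 elsewhere. It was called higher under waterlogging (2.03, SE 0.48, adjusted p = 0.00493), a call that was lost without Flood replicate 3 (adjusted p = 0.0914). The remaining annotated members were LOC105034274 (oxidoreductase), LOC105039984 (carbohydrate metabolism), LOC105032304 (transmembrane transport), LOC105033199 (transferase) and LOC105037505 (protein kinase), with control means between 103 and 1292 and stress means between 7.18 and 546.

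**Figure D3:**
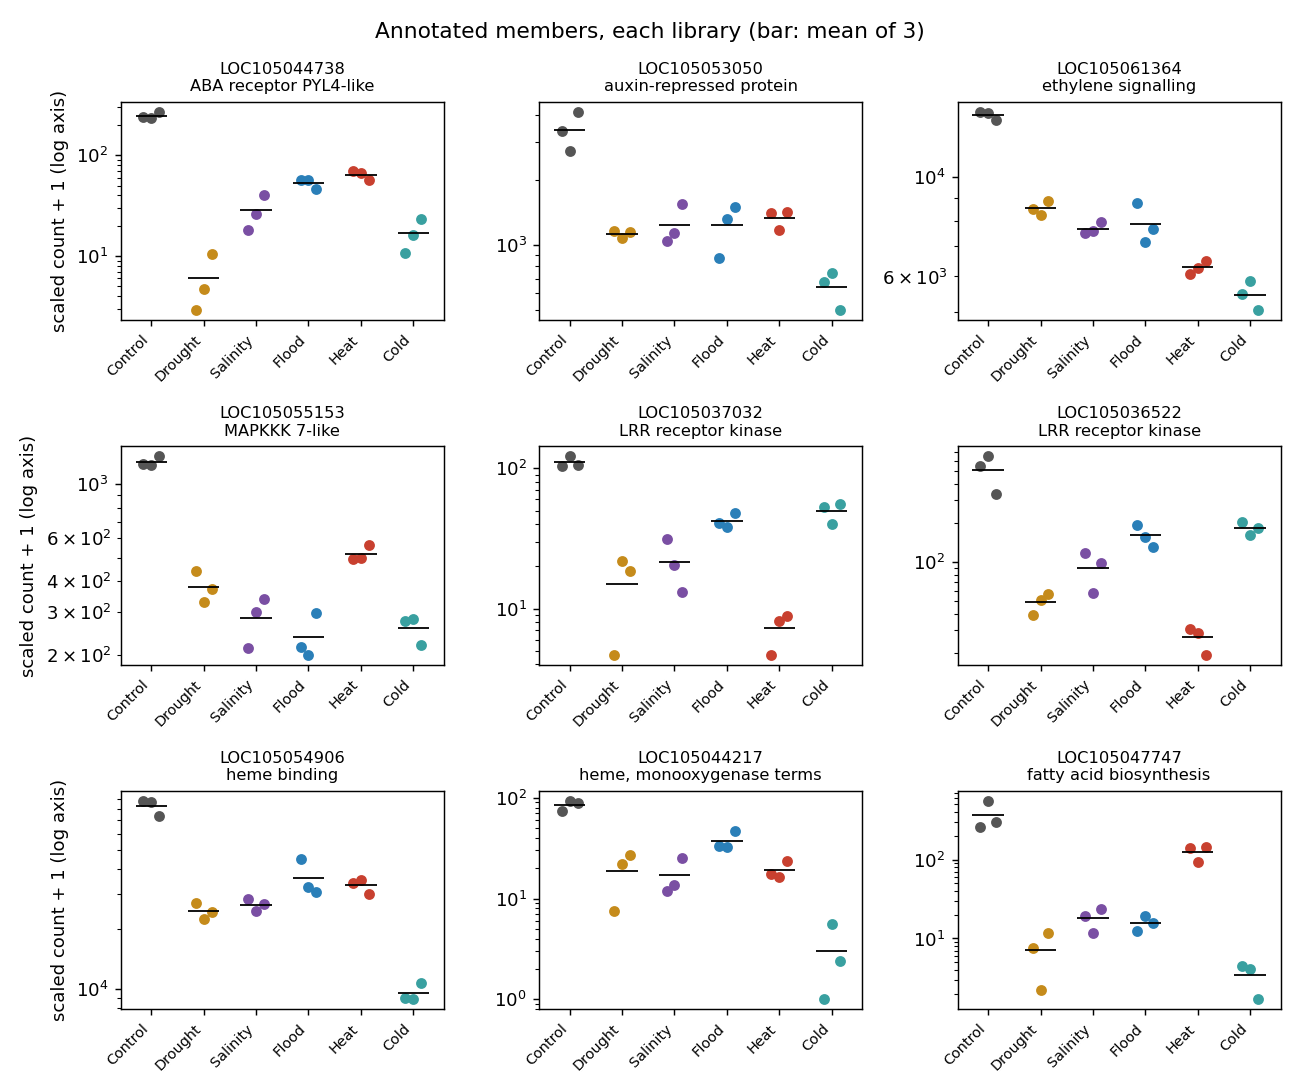
Normalised read counts plus 1 on a log axis for 9 annotated members, with 1 point per library and a bar at the mean of 3. The control points stand above all stress points in each panel, which the selection fixed; drought is lowest for the ABA receptor, heat for both LRR receptor kinases, and cold for the heme and fatty acid genes.

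To ask how far the members differed between stresses, a quasi-likelihood model of all 18 libraries was fitted to the 23830 genes that passed a filter on low counts; all 223 members passed it, and since each is high in the control libraries by selection, passing says nothing about them. Any difference among the 5 stresses was found for 156 members (70.0%) at an adjusted p under 0.05, against 75.2% of all genes tested. At the same threshold and at least 2-fold away from the mean of the other 4 stresses, 77 members (34.5%, against 34.3% of all genes) were called in at least 1 stress and 146 in none. The rule also held every stress library under the control level, which limits how far a member can stand out upwards.

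Cold had the most calls. It was lower than the other stresses for 39 members (17.5%, against 12.3% of all genes) and higher for 5 (2.24%, against 10.9%). Heat was lower for 15 (6.73%, against 5.82%) and higher for 15 (6.73%, against 6.61%). Drought was lower for 14 (6.28%, against 3.53%) and higher for 8 (3.59%, against 4.73%). Waterlogging was lower for 5 (2.24%, against 2.99%) and higher for 12 (5.38%, against 4.15%), and salinity lower for 2 (0.897%, against 1.19%) and higher for 6 (2.69%, against 2.90%). Shares near those of all genes are no result about the members, and no test was made of the shares that were further away. The upward limit set by the rule applied to the members and not to all genes, so the shares of higher calls are not like for like. Scaling by library totals, which moved the median log2 ratio of all genes under cold to 0.28, was not tried for the calls. How far the lower and higher counts under cold depend on that scaling was therefore not tested. Without the 2-fold minimum, lower calls were 21 for drought (9.42%, against 15.2% of all genes), 4 for salinity (1.79%, against 11.2%), 17 for waterlogging (7.62%, against 12.3%), 45 for heat (20.2%, against 20.1%) and 84 for cold (37.7%, against 30.0%). Higher calls were then 61 for drought (27.4%, against 18.9%), 34 for salinity (15.2%, against 10.9%), 41 for waterlogging (18.4%, against 17.5%), 51 for heat (22.9%, against 23.0%) and 26 for cold (11.7%, against 29.8%). Drought thus had more lower than higher calls with the minimum and fewer without it. With the minimum, the count of 14 fell to 8 without Drought replicate 2, and the 5 under waterlogging became 10 without Flood replicate 3 and 3 without Flood replicate 1 or Cold replicate 1. The 2 salinity genes became 1 without any 1 salinity library, the 6 became 3 without Salinity replicate 3, and the 5 higher under cold became 8 without Flood replicate 3. The shares of all genes with these libraries left out are not given here.

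**Figure D4:**
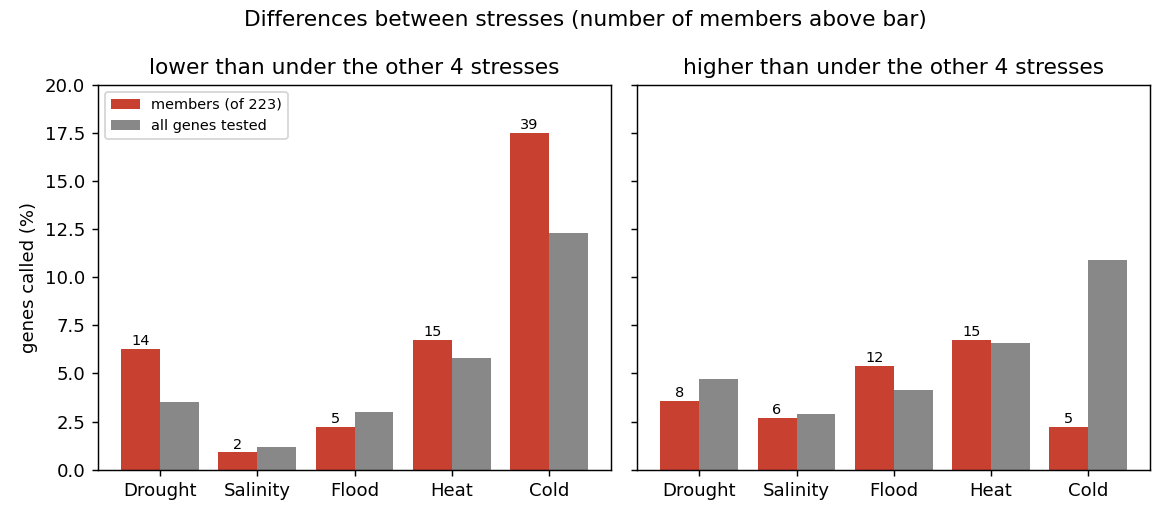
Percent of the 223 members (red, with their number) and of all 23830 genes tested (grey) called lower or higher in 1 stress than in the mean of the other 4, at an adjusted p under 0.05 and at least 2-fold. Cold has the tallest bar for lower calls (39 members, 17.5%), and its bar for higher calls (5 members, 2.24%) is far below that of all genes (10.9%). The rule held the members, but not all genes tested, below control in every stress library, which limits higher calls among them. Scaling by library totals was not tried for these calls.

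Of the genes lowest under cold, LOC105055556 read 7506, 7202 and 7565 in control, 470.4, 430.3 and 263 under cold and 1937 to 3860 in the other stress libraries. LOC105045502 read 2655, 3144 and 3421 in control, 140.0, 134 and 83.9 under cold and 442 to 1527 elsewhere. Both were separated from the other stresses without overlap, by -2.79 (SE 0.21, adjusted p = 3.21e-08) and -2.93 (SE 0.25, adjusted p = 1.11e-07). They were also called higher under drought, as was LOC105044288. LOC105044288 (-2.20, SE 0.33, adjusted p = 3.69e-05) and LOC105045274 (-1.22, SE 0.10, adjusted p = 8.81e-08), with control means of 13748 and 12187, were among the 10 members highest per length and were also called lower under cold. LOC105037041, at 0, 1.5 and 0 under cold, was called as well (-3.16, SE 1.203, adjusted p = 0.0336), but lost the call without Drought replicate 2, Flood replicate 3, Cold replicate 1 or Cold replicate 3 (highest adjusted p = 0.115) and did not pass the test for any difference among the stresses (adjusted p = 0.0740). None of these 5 genes has a function given in the sources used here.

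Heat separated the members in both directions. LOC105048270 read 23995, 11065 and 23216 in control and 3406, 2452 and 7020 under heat, while its other 12 stress libraries lay between 63.5 and 628. It was the member with the largest difference from the other 4 stresses (4.82, SE 0.34, adjusted p = 3.02e-08) and was therefore only 4.53-fold below control under heat but 218-fold below it under cold. LOC105043607 (2.30, SE 0.20, adjusted p = 2.84e-07) was likewise higher under heat, and lower under drought (-1.89, SE 0.29, adjusted p = 0.000179). In the opposite direction stood 2 lncRNAs. LOC105058691 read 3502, 3189 and 3321 in control, 342, 286 and 419 under heat and 1101 to 1687 elsewhere, and LOC105046584 read 1238, 1849 and 1416 in control, 63.2, 59.8 and 37.6 under heat and 145 to 643 elsewhere. Their heat levels differed from the other stresses by -1.96 (SE 0.12, adjusted p = 7.85e-09) for the first and -2.87 (SE 0.43, adjusted p = 7.99e-05) for the second.

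Over all 13 lncRNA members, 10 (76.9%, against 75.2% of all genes tested) differed among the stresses. Of these 13 genes 3 were called lower and 1 higher under heat, 1 lower and 1 higher under drought, and 1 higher under waterlogging, too few to set against the shares of all genes. Their median log2 ratios to control were -1.16, -1.36, -1.64, -1.71 and -1.67 for drought, salinity, waterlogging, heat and cold. The 17 added models had lower control levels (median of 107 normalised counts, against 504 over all members), and 11 of them (64.7%) differed among stresses. One of them, Novel00770, ranked 1 of all members, with 267, 391 and 286 in control and between 8.9 and 60.3 under stress. Its stresses passed no test for a difference (adjusted p = 0.0988).

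Drought was lowest for a small group with clear separation. LOC105056403 read 558, 604 and 641 in control, 45, 61.3 and 41.2 under drought and 138 to 334 elsewhere (-2.15, SE 0.22, adjusted p = 7.51e-06). LOC105038568 read 691, 731 and 717 in control and 21.5, 29.4 and 64.7 under drought (-2.27, SE 0.31, adjusted p = 8.30e-05). LOC105059626, an abundant member at 7714, 4557 and 5066 in control, read 398, 377 and 321 under drought, below its other stress libraries at 687 to 1413 (-1.50, SE 0.18, adjusted p = 2.31e-05). The drought libraries of these 3 genes overlapped with no other stress library. LOC105049643 was instead highest under drought (1.43, SE 0.17, adjusted p = 1.94e-05), at 110.5, 147 and 158, and LOC105058562 had its lowest mean under salinity (-1.30, SE 0.26, adjusted p = 0.00282), at 55.9, 29.1 and 31.5 against 336 to 406 in control. Salinity replicate 1 of LOC105058562, at 55.9, lay above Cold replicate 3 at 39.8.

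By the ratio of lowest control to highest stress value, LOC105035081 ranked 2, with 888, 405 and 641 in control and 22.3 to 100.6 under stress, LOC105057581 ranked 5, with 226, 294 and 240 and 16.9 to 66.1, and the pseudogene LOC105045446 ranked 6, with 249, 395 and 185 and 14.7 to 54.9. None of these 3 passed the test for a difference among the stresses (adjusted p = 0.164, 0.892 and 0.0832), and no function is given for them in the sources used here. Among the 10 members highest per length, LOC105056944 read 9100, 8660 and 10502 in control and 1587 to 5645 under stress. LOC105061512 read 22966, 9902 and 9011 in control, where replicate 1 stood apart, and 384 to 4785 under stress. LOC105044832 read 14200, 11207 and 7812 in control, 3870, 2661 and 3345 under drought and 353, 156 and 771 under cold.

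Calls in single stresses were also made for genes at lower control levels. LOC105055584 read 154, 202 and 269 in control and 1.9, 2.5 and 4.7 under drought (-2.77, SE 0.57, adjusted p = 0.00175). LOC105043488 was highest under drought, at 52.4, 50.3 and 43.5 against 103 to 120 in control (2.02, SE 0.35, adjusted p = 0.000521). LOC105050529 was highest under waterlogging, at 80.5, 63.6 and 82.2 against 172 to 227 in control (1.61, SE 0.32, adjusted p = 0.00148). The pseudogene LOC105041451 had its highest stress mean under cold, at 90.3, 49.6 and 101.3 against 285 to 734 in control (1.45, SE 0.33, adjusted p = 0.00144). Its Cold replicate 2, at 49.6, lay below Drought replicates 1 and 2 (61.8 and 57.7) and Salinity replicate 3 (55.9). The lower calls for LOC105055366 under salinity (-1.69, SE 0.51, adjusted p = 0.0295) and for LOC105053200 under waterlogging (-1.86, SE 0.61, adjusted p = 0.0302) were lost without a library of their own group (highest adjusted p = 0.116 and 0.099), namely any 1 of salinity and Flood replicate 1 or 2. LOC105053200 also did not pass the test for any difference among the stresses (adjusted p = 0.102).

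The calls for 2 stresses could fall on the same gene. Each contrast sets 1 stress against the mean of the other 4, so the 5 contrasts of a gene are not independent. A high level in 1 stress raises the mean that the others are set against. Opposite calls on the same gene can therefore in part restate the same difference. Of the 77 members called, 7 were lower under drought and higher under heat (3.14% of the members, against 0.898% of all genes). Calls lower under cold went with higher calls under drought, salinity or heat in 5 members each (2.24%, against 2.61%, 2.01% and 1.85% of all genes) and under waterlogging in 4 (1.79%, against 2.51%). A further 4 were higher under waterlogging and lower under heat (1.79%, against 1.31%), and other pairs of calls were held by 3 members or fewer. These shares were not tested. LOC105042620 was called in all 5 contrasts, at 0 to 2.9 under waterlogging, 0 to 2.8 under cold, 7.4 to 28.2 under drought, 6.1 to 24.4 under salinity and 19.6 to 23.6 under heat, against 55.3 to 100.4 in control. The heat mean was the highest of the stresses, but single drought and salinity libraries lay above all heat libraries. Its calls for drought, salinity, waterlogging and cold each depended on at least 1 library (highest adjusted p = 0.982, for cold without Flood replicate 3), and its heat call was kept in every setting tried.

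Of the 188 members placed in the NCBI gene order, 20 (10.64%) stood next to a further member, in 10 pairs, where members made up 0.7285% of the 25805 placed genes. Genes without a row in the counts were left out of this order, so such a gene could lie within a pair. A gene can have a neighbour on each side, so these shares are not like for like, and they were not tested. Log2 values of the paired genes over the 15 stress libraries correlated between r = -0.65 for LOC105035965 and LOC105035966 and r = 0.96 for LOC105060883 and LOC105060893, as a description that shares libraries and scaling. The last pair are RNAs of similar length (608 and 605 bases) with 14019 to 20841 and 6554 to 10581 normalised counts in control and 518 to 6487 and 126 to 3037 under stress. Whether their reads can be told apart was not tested. Both were called higher under salinity (1.79 and 1.83, adjusted p = 0.00871 and 0.0159), calls that were lost without Salinity replicate 2 (highest adjusted p = 0.0521 and 0.107) and, for LOC105060893, without Salinity replicate 3. Salinity was not set apart in either gene. LOC105060883 read 6487 in Flood replicate 3, above its salinity libraries at 2313, 5930 and 5353. LOC105060893 read 2495 in Flood replicate 3, against 770.5, 3037 and 2374 under salinity. LOC105036203 and its neighbour LOC105036362, a pseudogene in the NCBI table, were both called higher under waterlogging (2.03 and 1.82). Flood replicate 1 was low in both, at 14.1 and 20.4, below all heat libraries of the same gene. LOC105036362 read 116.5 and 117.5 in Flood replicates 2 and 3. The call for LOC105036203 was lost without Flood replicate 3, and that for LOC105036362 was kept in every setting tried.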

How the data were processed

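RNA of oil palm leaves was sequenced in 18 libraries, 3 for each of 6 groups, which were taken from the repository labels. The authors aligned reads with TopHat2, allowing 2 mismatches, to the published oil palm genome and counted them per gene with HTSeq; these deposited counts are whole numbers and not normalized. The deposited FPKM values are the same counts per length and library total. The sources used here do not give the assembly version or the settings for strand and multiply mapped reads; overlapping, antisense and near-identical genes cannot be told apart.

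The 223 members were found with size factors from 22747 genes without a 0. Members and lists were chosen with earlier results of these data known. Count tests used edgeR 4.0.16 (R 4.3.3): filterByExpr, TMM, 1 coefficient per group, 12 residual degrees of freedom, quasi-likelihood F tests, and Benjamini-Hochberg adjustment over 23830 genes. The SE is the log2 difference divided by the square root of F. The code was tested on simulated data. Members were named where the study annotates them, and otherwise by rank of the ratio, by control FPKM, by size of a called difference, by adjacency and at the thresholds. Functions come from the study and gene types from the NCBI table of assembly EG11, used for names and neighbour order only. Lists defined by product names, markers of other leaf cell types, and gene and protein sequences were not analysed here. Replicates are stated to be biological. Alternatives were DESeq2 1.42.0, size factors, no filter, stress libraries only, a replicate block, other thresholds and pseudocounts, FPKM, library totals, and each library left out.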

Additional observations from a re-analysis of the deposited data

How the results depend on the processing

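The number of genes that met the rule was 231 with TMM scaling, which kept all 223, and 225 to 327 when any 1 library was left out. It became 411 with library totals (192 of the 223 shared) and 410 with deposited FPKM (189 shared), 768 at a ratio of 1.2 and 68 at a ratio of 2. The sign of the median log2 ratios over the members is fixed by the selection, and only their size could change. For drought, salinity, waterlogging, heat and cold they were -1.976, -1.919, -2.11, -1.867 and -1.702 with library totals, and with a pseudocount of 5 drought was -1.63 and cold -1.829. With single libraries left out they ran from -1.697 to -1.613, -1.654 to -1.546, -1.687 to -1.646, -1.833 to -1.678 and -2.01 to -1.89.

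Between stresses, the count of members that differ was 145 to 165 with single libraries left out. Lower and higher calls then ranged from 8 to 15 and 7 to 11 for drought, 1 to 3 and 3 to 8 for salinity, 3 to 10 and 11 to 14 for waterlogging, 11 to 16 and 13 to 20 for heat, and 36 to 42 and 5 to 8 for cold. The shares of all genes with a library left out are not given here, so these ranges are no result about the members. Library totals were not among the settings tried for the calls. DESeq2 called 9 members lower under waterlogging, against 5 in the main fit (2.24%, against 2.99% of all genes). The shares of all genes called by DESeq2, or with the replicate block below, are not given here. Without the 2-fold minimum, for which the report gives the shares of all genes, higher calls were 61 for drought, 34 for salinity, 41 for waterlogging, 51 for heat and 26 for cold, and lower calls 21 for drought, 4 for salinity, 17 for waterlogging, 45 for heat and 84 for cold. Of 121 calls, 79 were kept in all 23 settings. With the replicate block, 155 members differed among stresses and 38 were lower under cold; same-numbered libraries correlated between -0.297 and 0.290 over 45 comparisons, 12 of them over 0.1. All 3 pairs were over 0.1 for control with cold (0.1145 to 0.2494), a contrast with no test here, and for no pair of stress groups, so the numbers were not taken to pair the stress libraries. The cause of the other changes was not tested. Members near 0 under stress, such as LOC105042620, are limited by counting error.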

Other observations

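Some genes that the study annotates were lower under most stresses without meeting the rule; they are given as values and were chosen after their values were seen. LOC105035265, annotated to heme binding, read 441, 587 and 526 in control and between 29.7 and 179 under drought, salinity, waterlogging and cold, but 1016, 1181 and 1081 under heat. LOC105037305, with the same annotation, read 34.3, 31.2 and 23.3 in control, 0.8 to 13.6 in the same 4 stresses and 275, 135 and 293 under heat. The heat libraries of both genes lay above all control libraries. LOC105038869, a chaperone, missed the ratio narrowly at 1.496: it read 415, 294 and 411 in control, 142 to 196 under heat and 86.1 to 120.3 under the other stresses. LOC105056286 read 8026, 8475 and 5554 in control and 765 to 3885 under stress, a ratio of 1.43. LOC105035372 was held out by Flood replicate 1 alone, at 1374 against a lowest control value of 1684, while its other 14 stress libraries lay between 22.4 and 694.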
